A study of Mus musculus with 5 samples.

Results

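Nucleolar ribosome biogenesis genes encode the machinery that transcribes ribosomal RNA (rRNA), modifies and cuts it, and assembles it with proteins into ribosomal subunits. They were examined here as 41 genes chosen by symbol, of 33894 named gene entries per file. Of these, 40 had a row in the files, and the expression of Noc2l is not analysed here. All 40 passed the filter on low counts that left 13696 genes for testing, and the lowest count of any of them in any library was 143.

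RNA was sequenced in bulk from mouse bone marrow stem cells sorted as negative for lineage markers, CD34 and Flt3, positive for Sca1 and high for c-Kit. The 3 dKO libraries came from mice with Vav-cre and floxed alleles of the Wnt co-receptor genes (Lrp5 fl/fl and Lrp6 fl/fl), which Cre, driven in blood cells by the Vav promoter, is meant to delete. The 2 WT libraries came from wild type mice. The labels name Cre in the dKO group alone, so an effect of Cre and an effect of the deletion cannot be told apart. All mice were 8 weeks old. Nothing in the labels ties each library to a mouse of its own, so p-values measure the spread between these libraries, which may be technical.

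The shallowest library, dKO replicate 2, held 16028512 counts, and the deepest, WT replicate 2, held 28027458. In log2 CPM, read counts put on a common library size with the TMM method, dKO replicate 2 correlated with the other libraries at 0.851 or less across genes, and the others with one another at 0.883 or more. Whole-gene counts of the targeted genes were not lower in the libraries labelled dKO. Lrp6 had 790, 260 and 767 counts in dKO libraries and 660 and 232 in WT libraries, and Lrp5 had 37, 2 and 71 counts in dKO libraries and 7 and 32 in WT libraries. A whole-gene count does not show the loss of an exon, and every direction below rests on the labels. All 10 stem cell markers examined, Kit, Ly6a, Mecom and Hlf among them, were detected in all 5 libraries, with a summed level of 2140 to 2360 CPM in dKO and 1145 to 1733 CPM in WT. Cd34 and Flt3, whose proteins the sort selected against, were present as transcripts, at a sum of 1268 to 1446 CPM in dKO and 877 to 1449 CPM in WT. Most of the sum was Cd34, at 946, 968 and 1086 CPM in dKO and 1212 and 761 CPM in WT. Flt3 had 338, 300 and 360 CPM in dKO and 238 and 116 CPM in WT, so its dKO values all lay above WT. The 3 T cell markers summed to 0.22, 10.8 and 0.19 CPM in dKO and 1.75 and 0.04 CPM in WT, with Cd3g making up all of the sum in dKO replicate 2 and Cd3e at 0 in every library.

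In the nucleolus, RNA polymerase I makes a long precursor rRNA. Small nucleolar ribonucleoproteins (snoRNPs) of the box C/D class methylate it, and those of the box H/ACA class convert uridines to pseudouridines. Assembly factors then cleave the precursor and build the small and large subunits separately before both leave the nucleus. Blood stem cells are known for a low rate of protein synthesis, and the transcription factor Myc is a textbook regulator of ribosome production.

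The 40 genes were well expressed on a per-length scale. Transcript level in TPM, a length-corrected share of all transcripts, had a median over these genes of 94.7 as a mean of the 5 libraries, against 14.2 over all genes tested. Their median stood at the percentile 84.8 of tested genes. Npm1, the nucleolar scaffold protein nucleophosmin, made up 14.3% of their summed TPM, followed by the box C/D core protein Nop56 at 10.8% and the box H/ACA protein Nhp2 at 8.17%. The 6 highest genes, which also included Nop10, Dkc1 and Nop58, held 49.2% of the sum. At the low end were Noc3l, with 4.07 to 8.54 TPM in dKO libraries and 5.60 to 8.53 TPM in WT libraries, and Utp20, with 4.39 to 12.03 TPM in dKO and 7.28 to 8.01 TPM in WT.

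**Figure D1:**
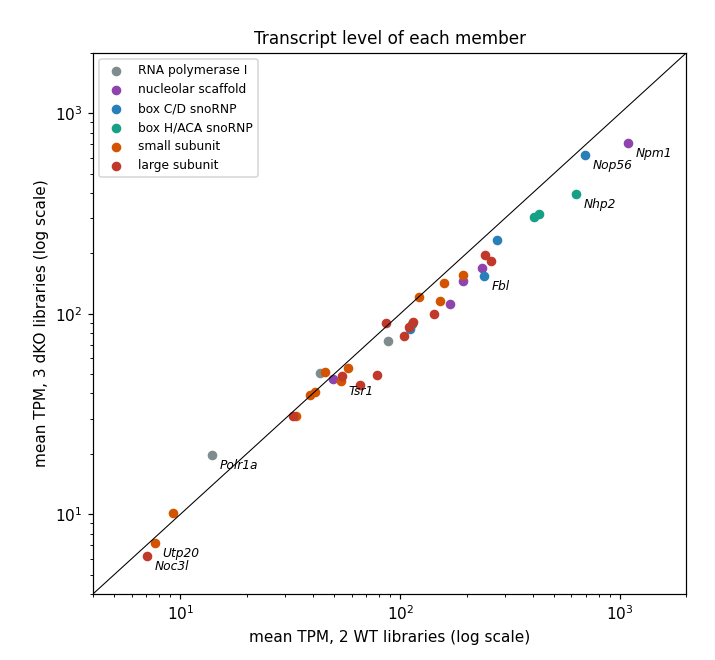
Mean TPM of the 40 genes in the 3 dKO libraries (vertical, log scale) against the 2 WT libraries (horizontal, log scale), coloured by role, with a line of equality. Of the 40 points, 34 lie below the line, among them Npm1 at 707 TPM in dKO and 1080 TPM in WT, and 6 above it, among them Polr1a at 19.8 TPM in dKO and 13.9 TPM in WT. In log2(TPM + 1) the median log2 fold change of dKO over WT was -0.33 over the 40 genes and 0.14 over all genes tested.

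Promoter sequences of these genes are shown because most of them differed between the groups in the same direction. RefSeq windows on GRCm38.p6, from 250 bases before to 50 bases after each annotated start, were at hand for 36 of the 41 genes. Npm1, Fbl, Rrp12, Bop1 and Rrs1 had no entry. The E-box CACGTG, which Myc and its partner Max can bind and which reads the same on both strands, was held once each by 7 of the 36 genes (19.4%), namely Nop2, Ltv1, Utp20, Pes1, Tsr1, Utp18 and Wdr43. Among all 27025 genes with an entry, expressed here or not, 8.09% held it. In the order named, these 7 genes had log2 fold changes of dKO over WT of -0.16, -0.59, -0.29, -0.53, -0.45, -0.01 and -0.47. A link between the E-box and these values was not tested. The match is a description of letters, and no binding was measured.

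The E-box promoters are printed for the 5 genes whose match lay upstream of the start or ended no more than 30 bases downstream of it. The motif began 60 bases upstream of the start in Nop2 and 20 bases upstream in Utp18, and 2, 24 and 17 bases downstream in Pes1, Tsr1 and Wdr43. Each is written 5′ to 3′ on the gene's strand, with the E-box in capitals. They lie at chr6:125131763-125131888 (plus strand) for Nop2, chr11:93885737-93885846 (minus) for Utp18, chr11:3963917-3964004 (plus) for Pes1, chr11:74898044-74898109 (plus) for Tsr1 and chr17:71616172-71616244 (plus) for Wdr43.
Nop2: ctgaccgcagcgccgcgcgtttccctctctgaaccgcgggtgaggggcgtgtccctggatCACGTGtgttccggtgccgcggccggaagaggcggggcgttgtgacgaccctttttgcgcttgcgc
Utp18: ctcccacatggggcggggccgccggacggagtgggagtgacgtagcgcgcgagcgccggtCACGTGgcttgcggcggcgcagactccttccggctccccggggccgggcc
Pes1: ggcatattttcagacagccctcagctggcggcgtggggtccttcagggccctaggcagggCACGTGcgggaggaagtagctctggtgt
Tsr1: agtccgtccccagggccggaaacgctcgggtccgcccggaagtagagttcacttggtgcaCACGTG
Wdr43: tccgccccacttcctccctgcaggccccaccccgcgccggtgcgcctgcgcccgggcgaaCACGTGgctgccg

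For comparison, the 120 bases before the start are shown for Nhp2, Ddx56 and Gnl3, the 3 genes with an entry whose dKO and WT libraries differed with the smallest unadjusted p. None of these 3 windows held the E-box. They lie at chr11:51619653-51619772 (plus) for Nhp2, chr11:6267730-6267849 (minus) for Ddx56 and chr14:31019132-31019251 (minus) for Gnl3.
Nhp2: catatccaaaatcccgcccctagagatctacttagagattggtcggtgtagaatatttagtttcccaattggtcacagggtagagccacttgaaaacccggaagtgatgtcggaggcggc
Ddx56: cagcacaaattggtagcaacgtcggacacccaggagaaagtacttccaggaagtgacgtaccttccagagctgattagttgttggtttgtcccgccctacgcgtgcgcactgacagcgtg
Gnl3: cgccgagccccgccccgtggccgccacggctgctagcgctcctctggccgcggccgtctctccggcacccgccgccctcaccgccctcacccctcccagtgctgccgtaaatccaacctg
After these letters were read, the ETS-type sequence CCGGAAGT was also searched on both strands. It was in 7 of the 36 genes (19.4%), namely Gar1, Ltv1, Nhp2, Nip7, Noc2l, Polr1c and Tsr1, and in 4.31% of all genes with an entry. Nhp2 and Tsr1 hold it in the letters printed above, so the way it was chosen raises the share of these genes.

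Ribosome biogenesis transcripts were lower in dKO libraries than in WT libraries for nearly every gene, by a moderate amount. The log2 fold change of dKO over WT was below 0 for 39 of the 40 genes (97.5%), against 47.8% of all 13696 genes tested, and above 0 for 1 gene, against 52.2%. Its median was -0.51 over the 40 genes, with a range of -0.94 to 0.13, and 0.04 over all genes tested. In 23 of the 40 genes (57.5%) every dKO library lay below every WT library in CPM, against 15.6% of all genes tested, and in 0 genes above, against 13.7%. On the TPM scale 17 genes (42.5%) were apart in the lower direction, against 8.81% of all genes tested, and 0 in the higher, against 18.6%. No single gene passed the test: with Benjamini-Hochberg adjustment over all genes, edgeR's quasi-likelihood test gave 0 of the 40 genes, and 0% of all genes tested in either direction, an adjusted p under 0.05. The smallest adjusted p among the 40 genes was 0.430.

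At an unadjusted p under 0.05, edgeR gave 16 of the 40 genes as lower (40.0%), against 5.19% of all genes tested, and 0 as higher, against 4.94%. DESeq2 called 5 of them lower, against 0.664% of all genes tested, namely Npm1, Gnl3, Fbl, Nhp2 and Ddx56. It called 0 of them higher, against 1.12%, and limma-voom called 0 in either direction. Genes of like level were also lower on the median. Among the 3471 tested genes at or above the lower quartile of these 40 genes in mean TPM, the median log2 fold change was -0.22, 68.8% had a value below 0, and in 34.9% every dKO library lay below every WT library. Across the 40 genes the log2 fold change had a Spearman correlation of -0.47 with mean TPM and 0.41 with transcript length, against -0.23 and 0.19 across all genes tested. These points share the same 5 libraries.

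**Figure D2:**
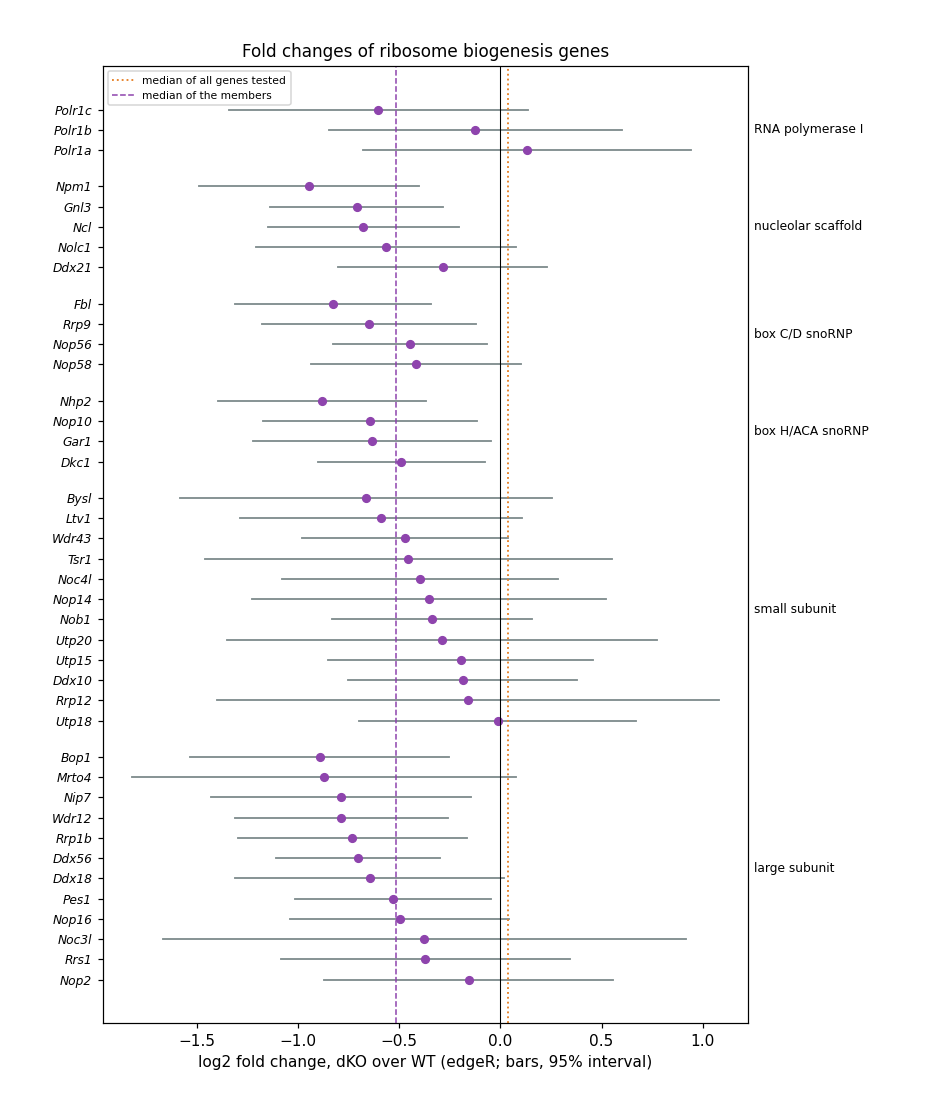
Log2 fold change of dKO over WT (points, from edgeR) with its 95% interval (bars) for each of the 40 genes, grouped by role. The dashed line is their median of -0.51 and the dotted line the median of all tested genes, 0.04. The bars of 16 genes end below 0, and Polr1a, at 0.13, has the 1 point above 0.

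Summed over the 40 genes, transcript level was 5476, 5717 and 4808 TPM in dKO replicates 1, 2 and 3, against 6653 and 7277 TPM in WT replicates 1 and 2. The mean was 5334 ± 471 TPM in dKO (SD, n = 3) and 6965 ± 441 TPM in WT (SD, n = 2), a ratio of 0.766. The groups did not overlap. A two-sided exact permutation test over the 5 libraries gave p = 0.2, the smallest value that 3 against 2 libraries allow. Without Npm1 the ratio was 0.786. In bulk RNA, fewer cells of a type and less RNA per cell cannot be told apart.

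For the scaffold proteins of the nucleolus, 5 genes, the median log2 fold change was -0.68. Npm1 had 673, 495 and 701 CPM in dKO libraries and 979 and 1419 CPM in WT libraries. No dKO value reached the lower WT value, and dKO replicate 2 was the lowest of all. Its log2 fold change was -0.94 (95% interval -1.49 to -0.40, edgeR adjusted p = 0.430; DESeq2 adjusted p = 0.0215).

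Ncl, nucleolin, which binds precursor rRNA, had 713, 789 and 781 CPM in dKO libraries against 991 and 1442 CPM in WT libraries. The dKO values lay close together and below both WT values, with a log2 fold change of -0.68 (95% interval -1.15 to -0.20, edgeR adjusted p = 0.436). Without WT replicate 2 that of Ncl was -0.39. Gnl3, the GTPase nucleostemin, had 125, 119 and 132 CPM in dKO and 197 and 213 CPM in WT. Both groups were tight and well apart, at 125 ± 6.97 CPM in dKO (SD, n = 3) and 205 ± 11.03 CPM in WT (SD, n = 2). Nolc1, a snoRNP chaperone, and the RNA helicase Ddx21 had log2 fold changes of -0.57 and -0.29, and both overlapped between the groups.

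Across the box C/D snoRNP genes the median log2 fold change was -0.55. In all 4 every dKO library lay below every WT library in CPM, against 15.6% of all genes tested. Fbl, fibrillarin, the enzyme that methylates rRNA, had 111, 85.1 and 98.7 CPM in dKO libraries and 170 and 179 CPM in WT libraries. The highest dKO value was well under the lower WT value, and the WT libraries differed little. Its log2 fold change was -0.83 (95% interval -1.31 to -0.34, edgeR adjusted p = 0.430; DESeq2 adjusted p = 0.0367). Rrp9, which binds the snoRNA that guides early cleavage, had 79.1, 70.0 and 68.6 CPM in dKO and 102 and 125 CPM in WT, a log2 fold change of -0.65. For the paired core proteins the differences were smaller, at -0.45 for Nop56 and -0.42 for Nop58. On the TPM scale Nop56 had 648, 655 and 557 in dKO libraries and 730 and 648 in WT libraries, so the groups overlapped there.

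In the box H/ACA class, whose proteins also sit in telomerase, the median log2 fold change was -0.64. All 4 had every dKO library below every WT library, both in CPM and in TPM, against 15.6% and 8.81% of all genes tested. Nhp2 had 190, 232 and 242 CPM in dKO and 333 and 484 CPM in WT, a log2 fold change of -0.88 (95% interval -1.39 to -0.37, edgeR adjusted p = 0.430; DESeq2 adjusted p = 0.0404). The WT libraries stood farther from each other than the dKO libraries did, and the value without WT replicate 2 was -0.59. Nop10, the smallest protein of the complex, had 221, 153 and 197 CPM in dKO and 256 and 338 CPM in WT, a log2 fold change of -0.64. Gar1 measured 54.5 ± 5.11 CPM in dKO (SD, n = 3) and 84.5 ± 13.4 CPM in WT (SD, n = 2). Dkc1, the pseudouridine synthase itself, measured 410 ± 36.3 CPM in dKO and 575 ± 68.3 CPM in WT, a log2 fold change of -0.49.

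Among 12 large subunit assembly factors the median log2 fold change was -0.67. In 9 of them every dKO library lay below every WT library in CPM, against 15.6% of all genes tested. In TPM this held for 6 of them, against 8.81% of all genes tested. Ddx56, an RNA helicase, had 183, 205 and 191 CPM in dKO libraries and 297 and 330 CPM in WT libraries. The gap between the groups was wider than the spread within either, with a log2 fold change of -0.70 (95% interval -1.11 to -0.30, edgeR adjusted p = 0.430; DESeq2 adjusted p = 0.0353). Pes1, Bop1 and Wdr12 form the PeBoW complex, which is needed to mature the large-subunit rRNA. Wdr12 had 164, 129 and 169 CPM in dKO and 221 and 311 CPM in WT, a log2 fold change of -0.79, which was -0.52 without WT replicate 2 and -0.49 in log2(TPM + 1). Bop1 measured 60.6 ± 13.4 CPM in dKO (SD, n = 3) and 112 ± 21.1 CPM in WT (SD, n = 2), and Pes1 119 ± 8.13 CPM in dKO and 171 ± 31.5 CPM in WT. All 3 PeBoW genes were lower in every dKO library than in either WT library, in CPM and in TPM.

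Among the other large subunit genes, the log2 fold changes of Nip7 and Rrp1b were -0.79 and -0.73, with no overlap in CPM. Rrp1b overlapped on the TPM scale, at 22.4 to 36.6 in dKO and 30.82 to 33.96 in WT. Mrto4, which holds the place of a stalk protein on the immature subunit, had -0.87, with 88.9, 38.1 and 97.8 CPM in dKO libraries and 106 and 168 CPM in WT libraries. Its dKO replicate 2 lay far below the other libraries, and on the TPM scale the groups overlapped. Ddx18 and Nop16 had log2 fold changes of -0.65 and -0.50, and Ddx18 overlapped between the groups in TPM. The rRNA methyltransferase Nop2 had -0.16, Rrs1 -0.37 and Noc3l -0.37, and these 3 genes overlapped between the groups.

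Small subunit factors, 12 genes, stood closer to 0, with a median log2 fold change of -0.35. The values of all 12 were below 0, between -0.66 for Bysl and -0.01 for Utp18, but none had an unadjusted p under 0.05. In 2 of them (16.7%), Wdr43 and Nob1, every dKO library lay below every WT library in CPM. That was close to the 15.6% of all genes tested. Nob1 overlapped in TPM. Wdr43, a subunit of the first complex to join the precursor, had 280, 250 and 377 CPM in dKO and 389 and 448 CPM in WT, a log2 fold change of -0.47 (95% interval -0.98 to 0.04, edgeR adjusted p = 0.526). The highest dKO value almost met the lower WT value. Ltv1, an export and maturation factor, had 118, 97.2 and 124 CPM in dKO and 115 and 226 CPM in WT. WT replicate 1 lay within the dKO range, and without WT replicate 2 the log2 fold change of Ltv1 was -0.03, against -0.59 with it.

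Several small subunit genes differed more among the dKO libraries than between the groups. Tsr1, a factor of late subunit assembly, had 38.7, 89.7 and 33.8 CPM in dKO against 74.9 and 73.0 CPM in WT. Utp20, a very large scaffold protein, had 24.3, 56.6 and 23.1 CPM in dKO against 38.2 and 46.4 CPM in WT. In both, dKO replicate 2 was above both WT libraries and the other dKO libraries were below them. Part of Tsr1's reads cannot be separated from those of the overlapping gene Srr, and part of Bysl's from those of Ccnd3. Nob1, the nuclease that makes the final cut of the small-subunit rRNA, measured 123 ± 17.1 CPM in dKO (SD, n = 3) and 155 ± 16.3 CPM in WT (SD, n = 2).

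The RNA polymerase I subunits did not separate the groups as a set, with a median log2 fold change of -0.12 over 3 genes. Polr1a, the largest subunit, had 57.1, 72.0 and 37.0 CPM in dKO and 44.4 and 56.6 CPM in WT. The dKO libraries spanned the WT values on both sides, with a log2 fold change of 0.13 (95% interval -0.68 to 0.94, edgeR adjusted p = 0.955), which was -0.0395 without WT replicate 1 and -0.0935 without dKO replicate 2. Polr1b, the second catalytic subunit, had 83.2, 146 and 80.3 CPM in dKO and 101 and 123 CPM in WT, a log2 fold change of -0.12. Its direction turned on the TPM scale, where it was 0.15, and without WT replicate 2, where it was 0.02. It also turned in a fit that left out a dKO library. Polr1c, which RNA polymerase III shares, had 69.2, 59.3 and 36.5 CPM in dKO against 79.3 and 87.7 CPM in WT. Its dKO values all lay below WT in CPM, with a log2 fold change of -0.60 (95% interval -1.34 to 0.14, edgeR adjusted p = 0.571), whereas in TPM dKO replicates 1 and 2, at 86.2 and 89.1, lay between the WT values of 91.0 and 85.5.

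**Figure D3:**
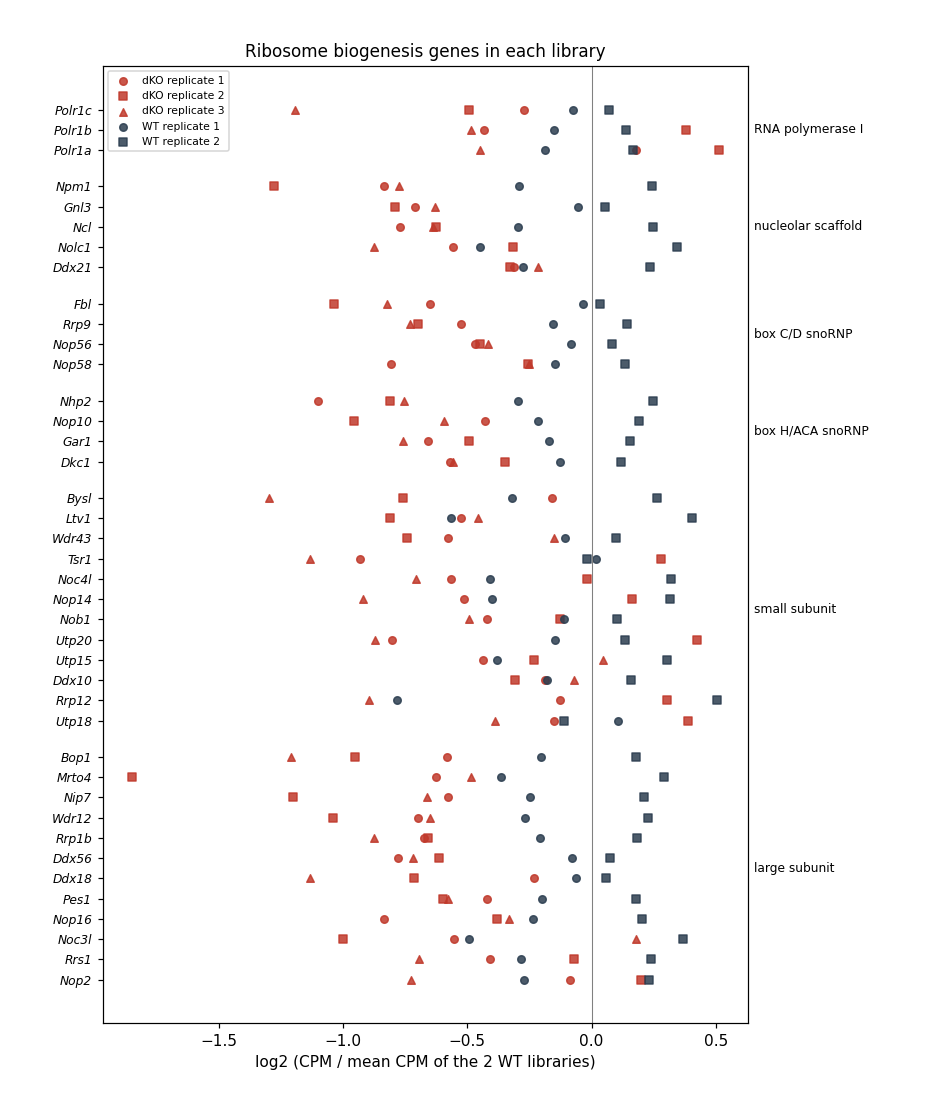
Each library's CPM for the 40 genes as log2 of its ratio to the WT mean, grouped by role and ordered by fold change within a role (red, dKO replicates 1 to 3; dark, WT replicates 1 and 2). The red points of the snoRNP genes lie left of both dark points, while those of Polr1a, Tsr1, Utp20 and other small subunit genes fall on both sides.

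The libraries were not alike within their groups. In CPM, WT replicate 2 was the highest of the 5 libraries in 35 of the 40 genes, and neither WT library was the lowest in any. The highest CPM in the other 5 genes, Polr1a, Polr1b, Utp18, Utp20 and Tsr1, was that of dKO replicate 2. The lowest CPM was in dKO replicate 3 for 19 genes, in dKO replicate 2 for 13 and in dKO replicate 1 for 8. These ranks were not the same in TPM. There WT replicate 2 was again the highest for Npm1 and Nhp2. For Fbl, WT replicate 1 was above it, at 252 against 228 TPM, and likewise for Gnl3, at 174 against 163 TPM. For Ddx21, WT replicate 1 was the lowest library, at 44.6 TPM. As a median over the 40 genes of log2 CPM minus that gene's mean, the dKO libraries stood at -0.21, -0.19 and -0.29 and the WT libraries at 0.13 and 0.51. The WT libraries were farther from each other than the dKO libraries were.

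By role, this measure split the set. For scaffold, snoRNP and large subunit genes, all dKO libraries were between -0.29 and -0.13 and all WT libraries between 0.12 and 0.66. For small subunit genes dKO replicate 2 was at 0.17, above WT replicate 1 at 0.02, while dKO replicates 1 and 3 were at -0.23 and -0.39 and WT replicate 2 at 0.42. For RNA polymerase I genes dKO replicate 2 was the highest of all, at 0.47, and dKO replicate 3 the lowest, at -0.49. The difference between role groups was not tested. Between small and large subunit factors it was absent from the further genes of the pathway given below.

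**Figure D4:**
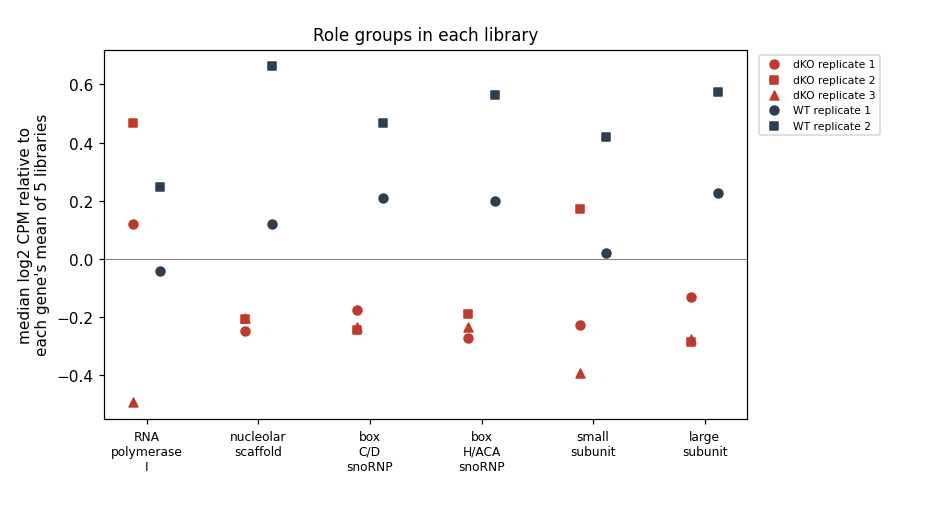
Median log2 CPM of each role group minus that gene's 5-library mean (vertical), for dKO (red, left in each pair) and WT (dark, right). In 4 role groups the dKO points lie below both WT points, and for small subunit and RNA polymerase I genes dKO replicate 2 lies among or above the WT points.

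Markers of other cells moved with some of these values. All 6 granulocyte progenitor markers had a log2 fold change below 0. Their summed level was 12236, 15747 and 11074 CPM in dKO libraries and 6443 and 42203 CPM in WT libraries. WT replicate 2, the library highest in CPM in most ribosome biogenesis genes, was thus also far the richest in these markers. None of the 6 was at 0 in any library. Without that library 32 of the 40 genes had a log2 fold change below 0. The median was then -0.36 (-0.39 for scaffold and -0.08 for small subunit genes), against 0.07 over all genes tested. In 23 genes every dKO library lay below WT replicate 1, against 25.7% of all genes tested. That number can only stay the same or rise on leaving out WT replicate 2. At an unadjusted p under 0.05 edgeR then gave 5 of the 40 genes as lower, against 138 of 14841 genes tested without that library. Without WT replicate 1 the median was -0.71, against 0.16 over all genes tested. In 35 genes every dKO library then lay below WT replicate 2, against 27.5% of all genes tested, a number that likewise could not fall.

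The 6 proliferation markers, Mki67 and Top2a among them, likewise all had log2 fold changes below 0. Their sum was 699, 1014 and 904 CPM in dKO and 1025 and 1505 CPM in WT, in which dKO replicate 2 nearly met WT replicate 1. None was at 0 in any library. Mast cell and basophil markers summed to 318, 959 and 453 CPM in dKO and 192 and 404 CPM in WT, with 1 of 5 lower. B cell markers summed to 122, 239 and 326 CPM in dKO and 162 and 109 CPM in WT, with 1 of 6 tested markers lower and Pax5 at 0 in dKO replicate 2 and both WT libraries. Erythroid markers summed to 107 to 143 CPM in dKO and 112 to 113 CPM in WT. The part of these cells and of proliferation in the result was not tested.

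**Figure D5:**
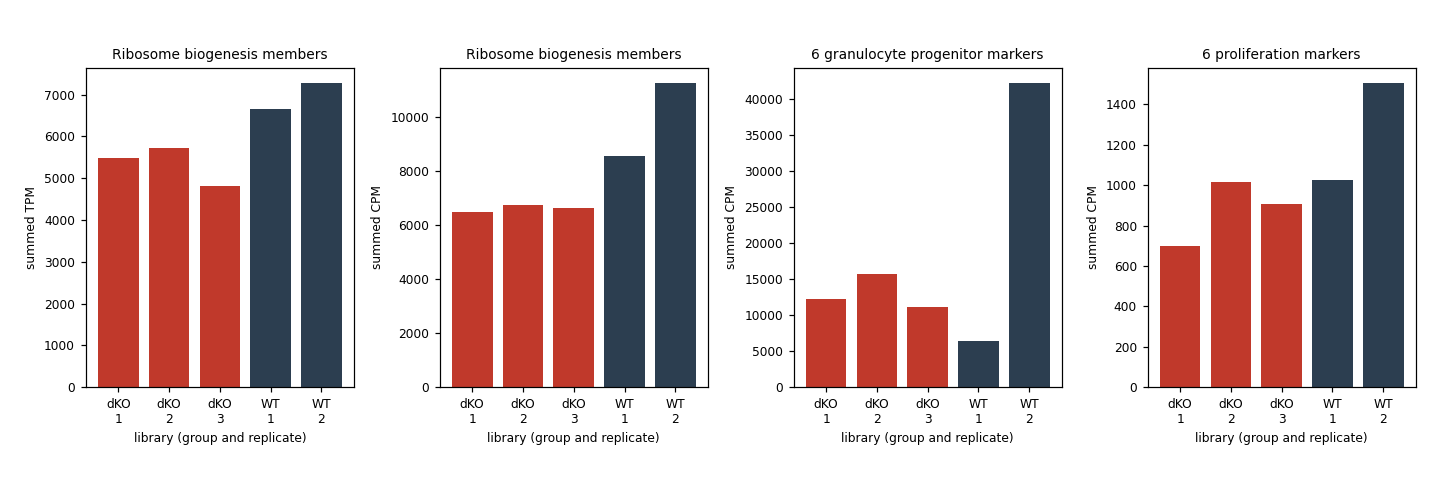
Summed level in each library (dKO red, WT dark) of the 40 ribosome biogenesis genes in TPM and in CPM, of 6 granulocyte progenitor markers in CPM and of 6 proliferation markers in CPM, all axes from 0. The ribosome biogenesis sums are lower in every dKO library than in either WT library, and the granulocyte sum reaches 42203 CPM in WT replicate 2 alone.

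Other genes of the pathway were taken from a list of 114, of which 112 were tested. Of these, 94 had a log2 fold change below 0 (83.9%), their median was -0.40, and in 57 (50.9%) every dKO library lay below every WT library in CPM, against 15.6% of all genes tested. In 4 genes (3.57%), Taf1d, Mdn1, Senp3 and Nop53, every dKO library lay above every WT library, against 13.7%. By edgeR 0 passed the adjusted threshold. At an unadjusted p under 0.05, 32 were lower (28.6%, against 5.19% of all genes tested) and 0 higher (against 4.94%). The nuclear exosome, which trims precursor rRNA, had a median of -0.60 over 12 genes, and snoRNP assembly factors -0.47 over 8. Remaining small subunit factors had a median of -0.38 over 41 genes, large subunit factors -0.36 over 40, and RNA polymerase I genes -0.24 over 11. Small subunit factors of this list were thus no less lowered than large subunit factors. In log2 CPM minus each gene's mean, the median of these small subunit factors was -0.07, -0.17 and -0.22 in dKO libraries. It was 0.14 and 0.38 in WT libraries.

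The 3 lower genes of that list with the smallest p were Ruvbl2, an ATPase that assembles snoRNPs, Rrp15 and Utp4. Ruvbl2 had 273, 347 and 248 CPM in dKO libraries and 470 and 599 CPM in WT libraries, a log2 fold change of -0.88 (edgeR adjusted p = 0.430). Utp4 had 110, 57.7 and 108 CPM in dKO and 182 and 250 CPM in WT, a log2 fold change of -1.23, and Rrp15 had -0.84. In all 3 the dKO libraries were below both WT libraries. The genes with the smallest p on the other side were Dhx37, Senp3 and Taf1d, at log2 fold changes of 1.39, 0.62 and 0.50 (edgeR adjusted p = 0.526, 0.544 and 0.577). Dhx37, an RNA helicase, had 30.97, 90.2 and 19.5 CPM in dKO and 19.9 and 15.9 CPM in WT, so dKO replicate 2 was far above the other libraries and the groups overlapped. Senp3, a SUMO protease, had 47.1, 54.1 and 40.2 CPM in dKO and 29.22 and 31.97 CPM in WT, with every dKO library above both WT libraries.

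The transcript of Myc itself did not follow these genes, and the level and activity of its protein were not measured. Myc had 655, 608 and 488 CPM in dKO libraries and 536 and 562 CPM in WT libraries. The dKO libraries lay on both sides of WT, with a log2 fold change of 0.09 (95% interval -0.35 to 0.53, edgeR adjusted p = 0.939).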

How the data were processed

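Smart-seq2 libraries were made from 6K sorted cells each, per the labels' protocols. The authors deposited whole-number counts of reads for each gene and, in separate files, TPM. CPM was computed here from the deposited counts with TMM library sizes. The submitters' processing notes name TopHat2 2.1.1, RSEM 1.2.31, HTSeq, DESeq2 and build mm9. The sources used here do not say which tool made which values. The 30 entries without a gene name held 0.216% to 0.269% of the counts and were left out. The test on counts was that of edgeR 4.0.16 under R 4.3.3 (TMM, filterByExpr, robust quasi-likelihood, two-sided, Benjamini-Hochberg over all 13696 genes, adjusted p under 0.05), with all 5 libraries and no covariate. Standard errors behind the 95% intervals are the log2 fold change over the root of the F statistic. The fits were run on simulated data with a smaller spread between libraries and larger changes than those seen here. That run does not show how well the fits recover changes of the size reported here. The genes, lists, roles and tests were chosen with earlier results of these data known, and nothing here counts as independent support.

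Values in each library are given for the 2 genes per role with the smallest p, for Npm1, Ncl and Fbl, and for genes above 0. Those of Mrto4, Tsr1, Utp20, Nop56 and Rrp1b were chosen after their values were seen, as were the means of Gar1, Dkc1, Bop1, Pes1 and Nob1. For the other pathway list, 9 genes matched by an older symbol, 1 by identifier, and Taf1a and Exosc6 are not analysed here. GENCODE M21 (GRCm38) gave transcript length, GC content and near-identical copies (at least 95% identity over 300 bases). For 8 genes such copies exist that are not protein-coding, and those with a row in the files had at most 16 counts in any library. Protein-coding matches were Ccnd3 for Bysl and Srr for Tsr1, which overlap them, Samd11 for Noc2l and Vmn1r88 for Wdr12, the last 2 not analysed here. Alternatives were DESeq2 1.42.0, limma 3.58.1 (voom with quality weights, or log2 TPM with a pseudocount of 1 or 0.1), other scalings and filters, the replicate number as a block, a GC and length trend removed (mgcv 1.9.3), and each library left out. A count of 0 allows 0.107 to 0.187 CPM (3 counts per library), for counting error only.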

Additional observations from a re-analysis of the deposited data

How the results depend on the processing

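The 40 genes kept a median log2 fold change below 0 under every alternative run. DESeq2 called 154 genes higher and 91 lower over all genes, 5 of the 40 lower (2 scaffold, 1 box C/D, 1 box H/ACA, 1 large subunit) and 5 of the other pathway list, against 0 by edgeR. With no filter on low counts edgeR called 5 higher and 3 lower. With log2(TPM + 1) limma called 3 higher and 2 lower. The medians were then -0.33 for the 40 genes (33 below 0), -0.17 for the other pathway list, -0.32 for box C/D, -0.44 for box H/ACA, -0.37 for large subunit and 0.15 for RNA polymerase I genes, with 1 of 3 lower and Polr1b at 0.15. With log2(TPM + 0.1) they were -0.33, -0.18, -0.33, -0.44, -0.37 and 0.15, with 1 of 3 lower, Polr1b at 0.15 and 2 genes called higher. In log2(TPM + 1), Npm1 was at -0.62, Rrp9 at -0.40, Ltv1 at -0.35 and Polr1c at -0.35. TPM moved the median of all genes to 0.14. Relative to all genes the 40 genes stood at -0.47 in TPM and -0.55 in counts. With the GC and length trend removed, the other pathway list was at -0.52, box C/D at -0.82 and Polr1a at -0.31, and the 40 genes stood at -0.47 relative to all genes. The summed ratio was 0.668 in CPM. The cause of these shifts was not tested.

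Leaving out 1 library each, edgeR called 0 to 2 genes higher and 0 to 3 lower. The median ranged from -0.71 to -0.36 for the 40 genes (32 to 40 below 0), -0.50 to -0.28 for the other list, -0.91 to -0.39 for scaffold, -0.68 to -0.43 for box C/D, -0.82 to -0.45 for box H/ACA, -0.77 to -0.51 for large subunit, -0.54 to -0.08 for small subunit and -0.45 to 0.0308 for RNA polymerase I genes (1 to 3 lower). Polr1a ranged from -0.0935 to 0.36 and Polr1b from -0.45 to 0.0308. Over all genes tested the median ranged from -0.01 to 0.16 in the same fits. The number of the 40 with every dKO library below WT ranged from 23 to 35, an alternative chosen after seeing the data. With a library left out this number can only stay at the 23 of the full set or rise. Its lower end therefore says nothing of stability. Where WT keeps 1 library, that library is taken to vary as the remaining ones do. With the replicate number as a block the median was -0.48, against -0.06 over all genes tested. In this fit 36 of 40 were below 0, and edgeR called 1 gene higher and 0 lower. Same-numbered libraries correlated at 0.03 and 0.05 in their deviations from the group means. With 2 WT libraries those deviations mirror each other, so these values cannot show whether same-numbered libraries share more than a number.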
